A study of Mus musculus with 6 samples.

Results

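Pericytes are the mural cells that wrap the small vessels of the retina, and 10 genes by which they are commonly recognised were followed through endothelial cell preparations from mouse pups. The genes were chosen by symbol: Pdgfrb, Rgs5, Cspg4, Kcnj8, Abcc9, Notch3, Higd1b, Vtn, Ndufa4l2 and Des. All 10 were found among the 24419 gene symbols measured, and all 10 were among the 13620 genes kept for testing, which reached 1 FPKM in 3 or more libraries. FPKM is the number of sequenced fragments scaled to the length of the gene and the depth of the library, so levels of different genes can be set side by side. The study sequenced RNA of 6 such preparations, 1 library each, from C57BL/6 retinas at postnatal day 7. The 3 controls, titled wild type, carried Anxa3 fl/fl, the floxed alleles of annexin A3, and the 3 mutants carried the same alleles with Tie2-Cre, a recombinase driven in endothelial and blood-lineage cells. Only the mutants carry Cre, so Cre and the loss of Anxa3 cannot be told apart. How many pups went into a library is not given in the sources used here, so p-values reflect only the spread among these 6 libraries, which may be technical.

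Pericytes are drawn to growing vessels by PDGF-B, which endothelial cells release and which acts on the receptor PDGFRB of the pericyte. Notch ligands on the endothelium act on NOTCH3 of the mural cell, and angiopoietin 1 from mural cells acts on the endothelial receptor TEK. Retinal vessels are densely covered by pericytes, which take part in vessel stability, capillary tone and the blood-retina barrier. Tie2-Cre is not expected to act in pericytes, so the comparison asks whether their transcripts change around an endothelium in which Anxa3 is targeted. In bulk samples, fewer pericytes and less RNA per pericyte cannot be told apart.

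The libraries held 21382573 to 30898851 reads, recovered from the FPKM steps. Values below are listed by replicate number. Anxa3 had 18.7, 17.7 and 43.4 FPKM across the controls and 9.78, 12.5 and 15.1 FPKM across the mutants, lower in every mutant than in every control, with a log2 difference of -0.93 (limma adjusted p = 1). Which part of the gene is removed is not given in the labels, and reads from the rest of it would still count. Control replicate 3 stood apart in its endothelial content. The mean log2(FPKM + 1) of the endothelial genes Pecam1, Cdh5 and Cldn5, called the endothelial level here, was 7.22 in control replicate 3 and 6.08 to 6.60 in the other libraries. Titles carry a letter too. The set A to C joins mutant replicate 1 (B) to the first pair of controls (A, C), and the set D to F joins control replicate 3 (D) to the other mutants (E, F). The meaning of these letters is not stated. The main axis of a principal component analysis (44.9% of variance) parted A to C from D to F, and the sets hold unequal numbers of controls and mutants, which bears on each mutant minus control value. The preparations also held RNA of other retinal cells. The mean of 17 rod and cone photoreceptor genes, none of them at 0, was 7.13 to 7.69 in controls and 7.43 to 7.80 in mutants on the log2(FPKM + 1) scale, against 3.84 to 4.68 and 4.07 to 4.31 for the 10 pericyte markers.

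The promoter sequences of 4 markers whose levels followed a common order across the libraries are shown first. Windows were found in RefSeq (GRCm38.p6) for 7 of the 10 members. Printed are Rgs5, the most abundant member, Notch3, a receptor, and Kcnj8 and Abcc9, the subunits of 1 potassium channel. Each is 200 bases on the strand of the gene, ending just before the more upstream of the RefSeq and GENCODE starts. Capitals mark the GC box GGGCGG and the letters TGGGAA, the core bound by the Notch effector RBPJ, on either strand.
Rgs5 (chr1:169655301-169655500, plus strand): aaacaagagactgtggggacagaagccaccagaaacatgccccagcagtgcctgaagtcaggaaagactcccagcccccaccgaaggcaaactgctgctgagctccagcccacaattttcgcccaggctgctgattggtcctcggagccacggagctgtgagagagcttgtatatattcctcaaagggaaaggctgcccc
Notch3 (chr17:32166891-32167090, minus strand): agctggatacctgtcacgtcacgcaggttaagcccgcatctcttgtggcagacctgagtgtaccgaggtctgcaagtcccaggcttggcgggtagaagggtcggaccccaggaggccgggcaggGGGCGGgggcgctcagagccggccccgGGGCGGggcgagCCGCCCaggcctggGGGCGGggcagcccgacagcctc
Kcnj8 (chr6:142571615-142571814, minus strand): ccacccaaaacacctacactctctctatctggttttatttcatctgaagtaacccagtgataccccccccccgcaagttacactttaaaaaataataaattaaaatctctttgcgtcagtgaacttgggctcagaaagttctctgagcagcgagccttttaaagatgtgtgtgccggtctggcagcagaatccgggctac
Abcc9 (chr6:142702316-142702515, minus strand): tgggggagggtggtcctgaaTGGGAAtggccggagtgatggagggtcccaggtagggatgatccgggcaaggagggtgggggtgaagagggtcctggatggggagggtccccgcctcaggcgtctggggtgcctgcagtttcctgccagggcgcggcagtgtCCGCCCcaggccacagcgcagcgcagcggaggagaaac
The 4 windows had little in common by these letters. Notch3 held 4 GC boxes, Abcc9 held 1, and Rgs5 and Kcnj8 held 0, where 31% of all 32851 RefSeq windows of 200 bases held at least 1. The letters TGGGAA were present once, in Abcc9, and in 17.3% of all windows. The E-box CANNTG, the site of basic helix-loop-helix factors, was also searched and is left in lower case. It was present once in Kcnj8 and in 58.2% of all windows. GC content was 72% in Notch3 and 68.5% in Abcc9, 56.5% in Rgs5 and 45% in Kcnj8, with a median of 53% over all windows. A match is a description of the letters and not a sign of binding. Kcnj8 and Abcc9 are neighbours on the minus strand of chromosome 6 of GRCm38, Kcnj8 from 142564837 to 142571614 and Abcc9 from 142587862 to 142702315, with 16247 bases between them.

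Rgs5 was by far the most abundant of the markers and Des the least. Over the 6 libraries the mean FPKM was 156.0 ± 34.1 for Rgs5, 26.8 ± 9.05 for Pdgfrb, 23.3 ± 3.78 for Vtn and 18.7 ± 5.26 for Abcc9 (SD, n = 6). It was 14.96 ± 2.06 for Ndufa4l2, 13.9 ± 5.30 for Higd1b, 13.2 ± 4.36 for Notch3, 7.95 ± 2.76 for Cspg4 and 4.67 ± 1.14 for Des, with Kcnj8 at 12.5 ± 3.03 between Notch3 and Cspg4 (SD, n = 6). Rgs5 lay above every other member in every library. Below Rgs5, each pair of neighbours in this order overlapped in their ranges over the libraries. Rgs5 made up 51.2% to 55.7% of the summed FPKM of the 10 genes, a narrow range across libraries whose sums ran from 224 to 409 FPKM. The lowest single value was 3.57 FPKM, of Des in control replicate 2, so transcripts of all 10 markers were present in each preparation labelled endothelial.

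**Figure D1:**
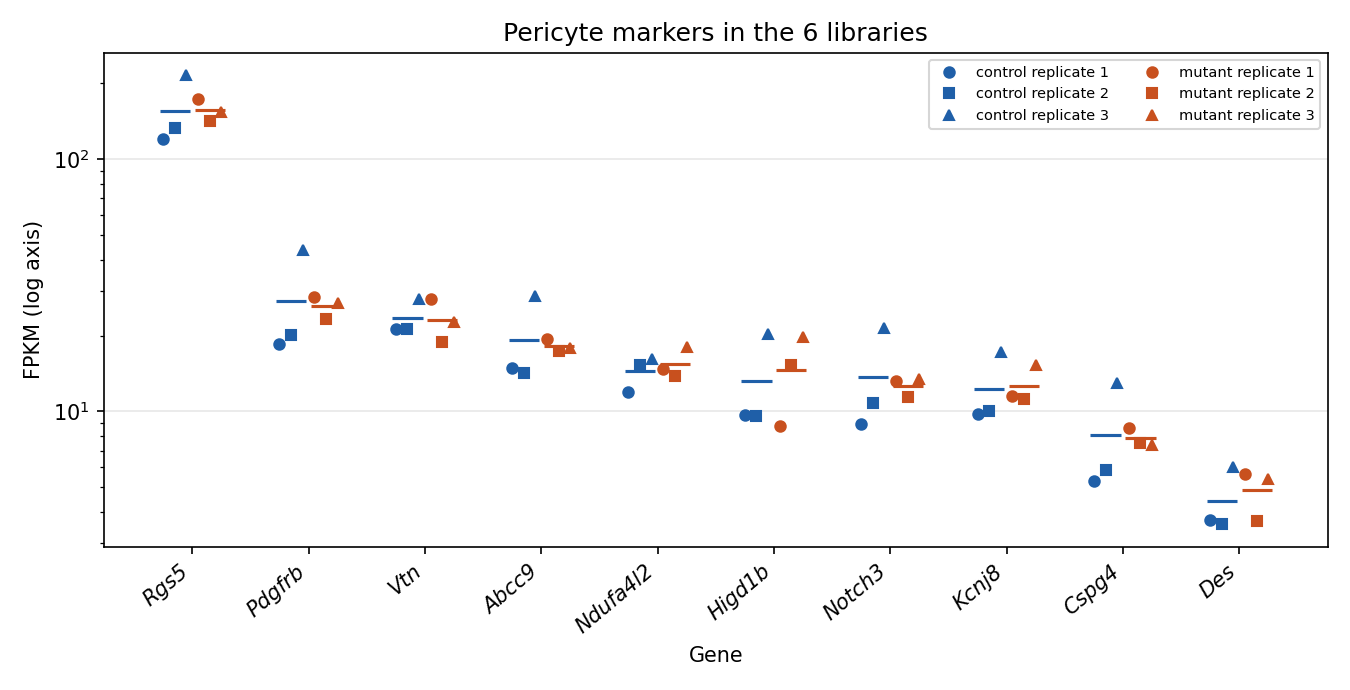
FPKM of the 10 pericyte markers (log axis) in each library, ordered by their mean. Points are libraries (blue control, orange mutant) and short lines are the means of the 3 libraries of a group. For Pdgfrb, Rgs5, Cspg4, Kcnj8, Abcc9 and Notch3 the mutants lie above control replicates 1 and 2 and below control replicate 3.

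The receptors came first among the members by their place in the signalling from vessel to pericyte. Pdgfrb, the receptor for PDGF-B, measured 18.4, 20.1 and 43.5 FPKM in the controls and 28.4, 23.2 and 27.0 FPKM in the mutants. All 3 mutants lay between the lower pair of controls and control replicate 3, so the groups overlapped. The group means were 27.3 ± 14.01 and 26.2 ± 2.73 FPKM (SD, n = 3 each). On the log2(FPKM + 1) scale the mutant minus control difference was 0.04 ± 0.289 (SE), and its limma 95% interval ran from -0.63 to 0.71 (adjusted p = 1). Notch3, the Notch receptor of mural cells, measured 8.96, 10.8 and 21.4 FPKM in the controls and 13.2, 11.4 and 13.4 FPKM in the mutants. Its order was the same, with every mutant above control replicates 1 and 2 and below control replicate 3, and its log2 difference was -0.02 (limma 95% interval -0.65 to 0.61, adjusted p = 1).

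Rgs5 and Cspg4, the classical surface and signalling markers, followed the receptors. Rgs5, which shortens G-protein signalling, measured 120, 133 and 215 FPKM in the controls and 174, 141 and 154 FPKM in the mutants. Its group means were 155.8 ± 51.3 and 156.2 ± 16.4 FPKM (SD, n = 3 each), a log2 difference of 0.05 (limma 95% interval -0.46 to 0.55, adjusted p = 1). Cspg4, the NG2 proteoglycan of the pericyte surface, measured 5.31, 5.86 and 13.02 FPKM in the controls and 8.63, 7.50 and 7.40 FPKM in the mutants. Its log2 difference was 0.06 (limma 95% interval -0.59 to 0.71, adjusted p = 1). Both again placed every mutant between control replicates 1 and 2 and control replicate 3.

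Kcnj8 and Abcc9 encode the pore and the regulatory subunit of the ATP-sensitive potassium channel of pericytes. Kcnj8 measured 9.74, 10.1 and 17.2 FPKM in the controls and 11.5, 11.2 and 15.3 FPKM in the mutants. Abcc9 measured 14.9, 14.2 and 28.7 FPKM in the controls and 19.4, 17.4 and 17.8 FPKM in the mutants. Abcc9 exceeded Kcnj8 in every library, at 1.40 to 1.67 times Kcnj8 in the controls and 1.17 to 1.69 times in the mutants, lowest in mutant replicate 3. Their log2 differences were 0.06 for Kcnj8 (limma 95% interval -0.44 to 0.57) and -0.01 for Abcc9 (-0.56 to 0.55), each with adjusted p = 1.

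Higd1b, which encodes a small mitochondrial membrane protein, measured 9.67, 9.57 and 20.4 FPKM in the controls and 8.73, 15.2 and 19.7 FPKM in the mutants. The libraries lettered D, E and F all lay above those lettered A, B and C, which held for 1 of the 10 members and for 15.1% of all genes tested. Between 135 and 402 reads lay behind a value, and the exact Poisson 95% intervals, which cover counting error only, reached 11.1 FPKM at most in A to C and 13.7 FPKM at least in D to F. The mutant minus control log2 difference was 0.15 with the widest interval of the members (limma 95% interval -0.65 to 0.94, adjusted p = 1).

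Vtn, Ndufa4l2 and Des made up the remainder. Vtn, which encodes the adhesion protein vitronectin and is also known from photoreceptors, measured 21.3, 21.1 and 27.8 FPKM in the controls and 28.0, 18.8 and 22.6 FPKM in the mutants. Its highest library was mutant replicate 1, which also had the highest photoreceptor level (7.80), and its second highest was control replicate 3, which had the lowest (7.13). The part of photoreceptor RNA in the Vtn values was not tested. Ndufa4l2, a hypoxia-regulated mitochondrial gene, measured 11.9, 15.3 and 16.1 FPKM in the controls and 14.7, 13.8 and 18.0 FPKM in the mutants. Des, the intermediate filament of muscle and mural cells, measured 3.70, 3.57 and 6.01 FPKM in the controls and 5.67, 3.67 and 5.38 FPKM in the mutants. All 3 overlapped between groups, with log2 differences of -0.02, 0.10 and 0.13 (limma adjusted p = 1 for each).

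No pericyte marker passed the test between genotypes. In the limma fit, 0 of 10 passed an adjusted p under 0.05, where 0% of all 13620 genes did, and 0 of 10 had an unadjusted p under 0.05, where 1.21% of all genes did. Groups without overlap, higher in mutants, were found for 0 of 10 members and 2.79% of genes, and lower in mutants for 0 of 10 and 1.56%. The difference was above 0 for 7 of 10 members and for 47.5% of genes, with medians of 0.05 and -0.01. That count turned to 2 of 10 with the letter set as a block, 1 of 10 without control replicate 1 and 2 of 10 without control replicate 2. It was 4 of 10 without mutant replicate 1, 5 of 10 without mutant replicate 3, and 10 of 10 without either mutant replicate 2 or control replicate 3. The median over all genes stayed between -0.01 and 0.01 in these settings. In the fit of all 6 libraries without a block, the 95% intervals of the 10 members ran from -0.65 at the lowest to 0.94 at the highest. Each thus excluded a doubling of FPKM + 1 (a log2 difference of 1) within that model. Two-sided exact permutation tests gave p from 0.6 to 1 for the 10 levels, where the smallest p that 20 arrangements allow is 0.1.

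For most members the spread came from control replicate 3, and they fell into a graded order by how far they stood out in it. Relative to the mean of control replicates 1 and 2, control replicate 3 held 2.33 times the Cspg4, 2.26 times the Pdgfrb, 2.2 times the Notch3, 2.12 times the Higd1b and 1.98 times the Abcc9. The endothelial genes stood higher there by factors of 1.95 for Pecam1, 2.04 for Cdh5 and 2.19 for Cldn5. Among the other markers Kcnj8 stood at 1.73, Rgs5 at 1.70 and Des at 1.65. Vtn at 1.31 and Ndufa4l2 at 1.18 stood out least. A factor of at least 1.5 was reached by 8 of 10 members and by 12% of all genes tested, and control replicate 3 was the highest library for the same 8 members and for 24.4% of genes. Photoreceptor genes went the other way, with a median factor of 0.72 over 17 genes. How far the markers follow the endothelial content is given next as a ratio.

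**Figure D2:**
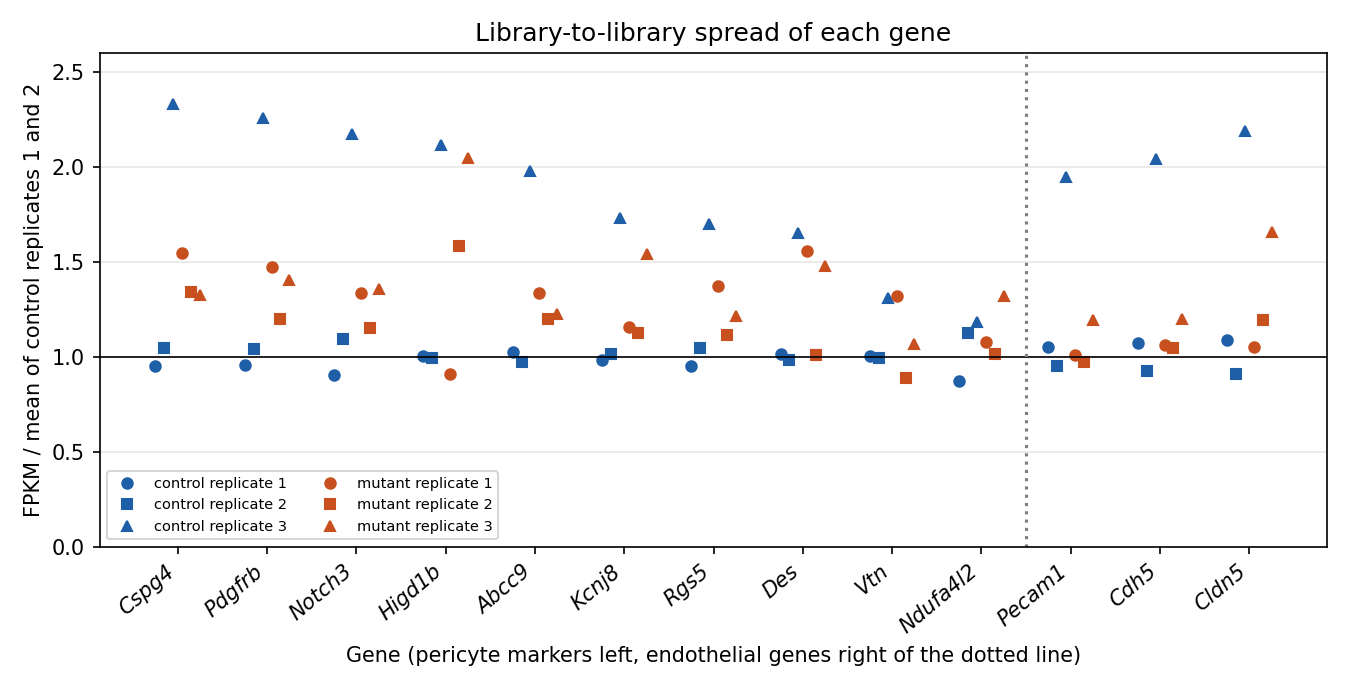
FPKM of each gene in each library divided by its mean in control replicates 1 and 2 (linear axis from 0). Control replicate 3 reaches 2.33 for Cspg4 and 1.18 for Ndufa4l2, and lies between 1.95 and 2.19 for the 3 endothelial genes.

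The 3 mutants lay above control replicates 1 and 2 in most members. This held in every mutant for 6 of 10 members, Pdgfrb, Rgs5, Cspg4, Kcnj8, Abcc9 and Notch3, and for 8.16% of all genes tested. The same 6 members also lay below control replicate 3 in every mutant, as did 3.72% of genes. Of the lists described below, the means of further pericyte genes, smooth muscle genes, mural transcription factors and recruitment signalling kept this order too. The endothelial level and the fibroblast mean did not. Mutant replicate 1 held 1.55 times the Cspg4 and 1.47 times the Pdgfrb of the mean of control replicates 1 and 2, but 1.08 times the Ndufa4l2 and 0.908 times the Higd1b. Its Pecam1 stood at 1.01, Cdh5 at 1.06 and Cldn5 at 1.05. In mutant replicate 3, Cspg4 stood at 1.32 and Pdgfrb at 1.40, beside Pecam1 at 1.19, Cdh5 at 1.20 and Cldn5 at 1.66. Without control replicate 3 the log2 difference was above 0 for 10 of 10 members and for 49.4% of genes, from 0.10 for Vtn to 0.48 for Higd1b. It was 0.42 for both Pdgfrb and Cspg4, 0.33 for Notch3 and 0.31 for Abcc9, the 4 members with an unadjusted limma p under 0.05, which 2.27% of genes had. No member passed after adjustment, at a limma adjusted p = 0.999 for each. Against control replicate 3, both mutants of the set D to F were lower for 9 of 10 members, all but Ndufa4l2, and for 37.7% of genes, and both were higher for 0 of 10 members and for 38.6% of genes.

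Setting the markers against the endothelial level gave a pericyte to endothelial ratio. The mean log2(FPKM + 1) of the 10 members minus the endothelial level was -2.45, -2.16 and -2.54 across the controls and -2.02, -2.21 and -2.29 across the mutants. Control replicate 2 lay above mutant replicates 2 and 3, so the groups overlapped, and mutant replicate 1 was the highest library. The group means were -2.38 ± 0.20 and -2.18 ± 0.14 (SD, n = 3 each), a difference of 0.21, or 1.15 times, against a pooled spread of 0.17 within groups. No p is given for a score over chosen genes. This log2 difference was 0.28 within the libraries lettered A to C, where mutant replicate 1 is the only mutant, and 0.29 within those lettered D to F, where control replicate 3 is the only control. The 2 values had unlike parts. In A to C the markers differed by 0.34 and the endothelial level by 0.06, and in D to F by -0.49 and -0.78. With the letter set as a block the difference was 0.29. In that setting the median over all genes, with the endothelial level subtracted from each, was 0.36, so the markers did not exceed genes in general. The ratio of summed FPKM, which Rgs5 dominates, was 0.876, 1.11 and 0.818 in the controls and 1.26, 0.997 and 0.871 in the mutants. The mutant minus control difference of that ratio was 0.26 in A to C and 0.12 in D to F.

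**Figure D3:**
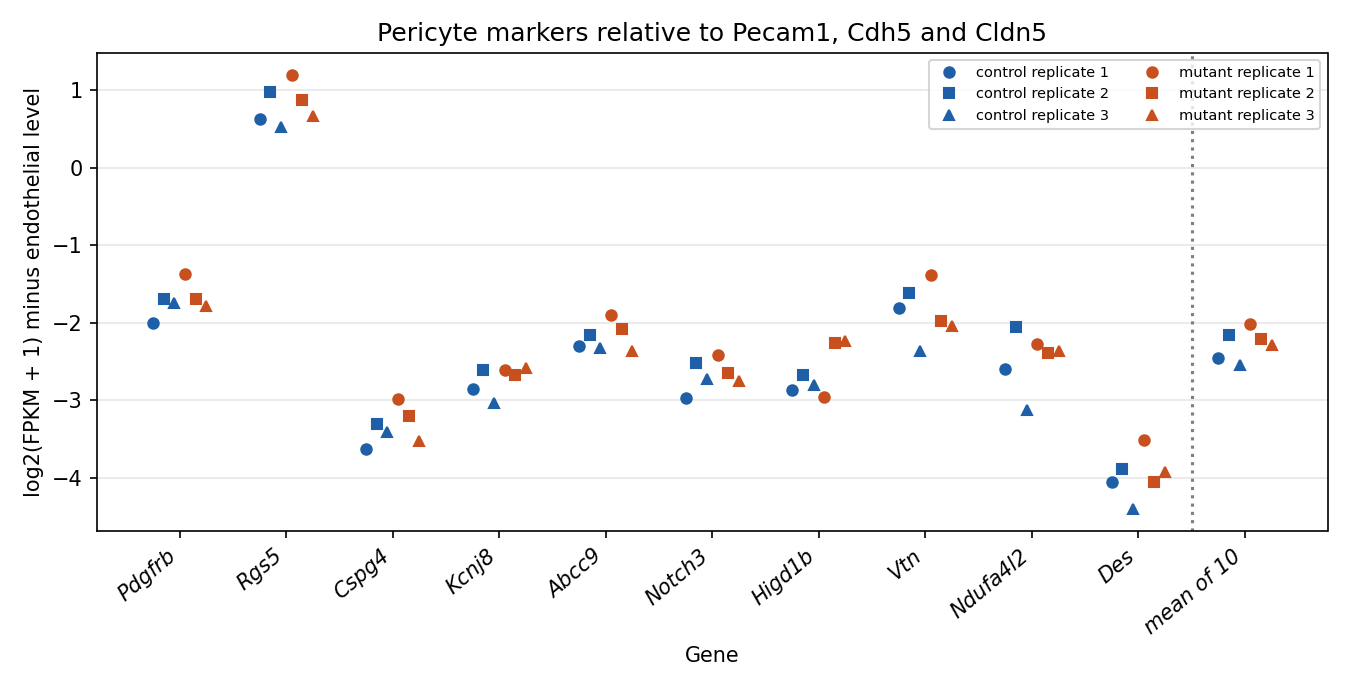
Each pericyte marker minus the endothelial level (mean of Pecam1, Cdh5 and Cldn5), in log2(FPKM + 1) units, by library, with the mean of the 10 at the right. The mean runs from -2.54 in control replicate 3 to -2.02 in mutant replicate 1, and the groups overlap.

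With all 6 libraries, the relative difference of each member had the same direction and a size close to that of genes in general. With the endothelial level subtracted from every gene, the mutant minus control log2 difference was above 0 for 10 of 10 members, and for 91.4% of all genes tested. It ran from 0.13 for Notch3 and Vtn to 0.30 for Higd1b, with a median of 0.21, where the median over all genes was 0.15. The shift over all genes follows from the subtraction, since the endothelial level itself differed by -0.15. In that limma fit 0 of 10 members passed, where 0% of genes did, and 0 of 10 had an unadjusted p under 0.05, where 0.727% did. Groups without overlap, higher in mutants, were found for 0 of 10 members and 0.91% of genes. Standard errors were 0.394 to 0.493, and limma draws them toward the spread of all genes against the endothelial level. Kcnj8 had the smallest spread of the relative values in mutants, at -2.62 ± 0.05 against -2.84 ± 0.21 in controls (SD, n = 3 each), with a two-sided exact permutation p = 0.2. Exact permutation p ran from 0.2 to 0.8 over the members, where 0.1 is the smallest possible. Without control replicate 3 the relative difference was above 0 for 8 of 10 members, at 0.11 to 0.29, and for 10% of genes, whose median was -0.19. It was -0.09 for Vtn and -0.01 for Ndufa4l2, and again 0 of 10 passed, where 0.504% of genes did. At an unadjusted p under 0.05 it was 0 of 10, against 2.39% of genes.

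**Figure D4:**
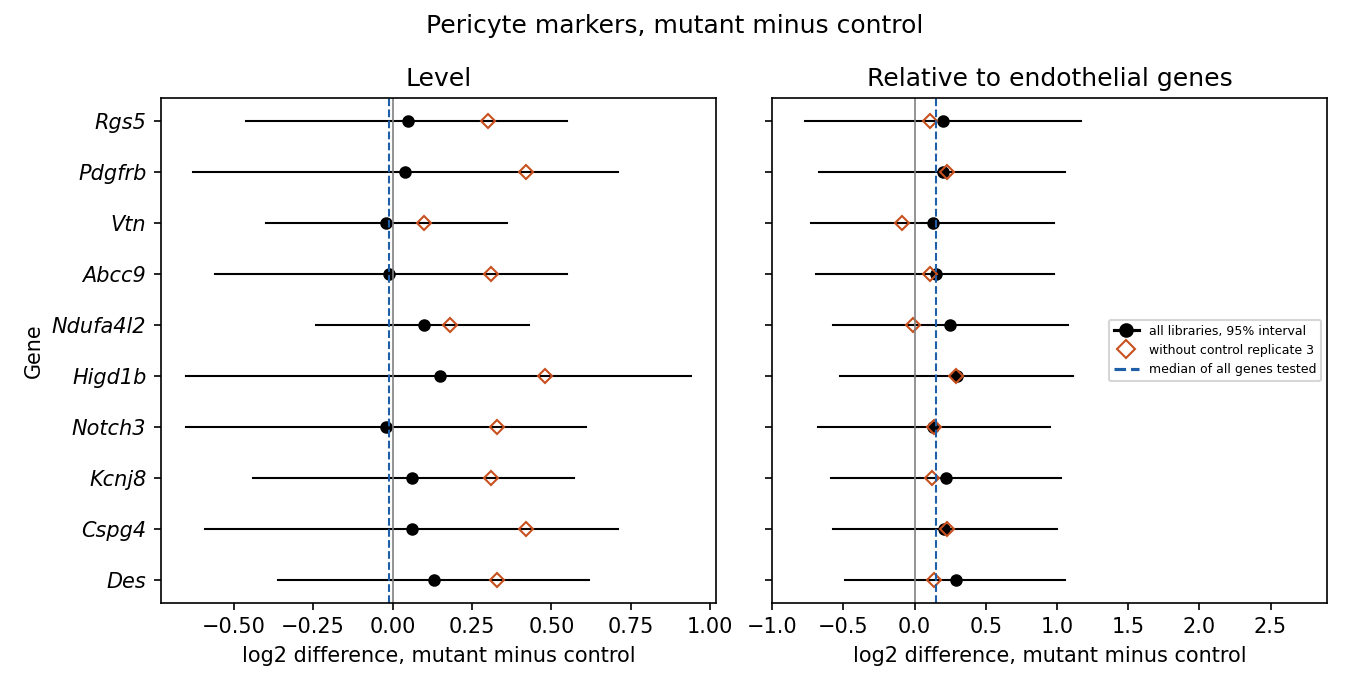
Mutant minus control log2 difference of each marker, as a level (left) and relative to the endothelial genes (right). Filled points and bars are limma estimates with 95% intervals from all 6 libraries, open diamonds the estimates without control replicate 3, and the dashed line the median of all genes tested (-0.01 and 0.15). All bars cross 0.

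Within the lettered sets the relative values of single members were less uniform than their mean. Mutant replicate 1 lay above both controls lettered A and C for 8 of 10 members, all but Higd1b and Ndufa4l2, and for 16.6% of genes. In D to F both mutants lay above control replicate 3 for 6 of 10 members, Rgs5, Kcnj8, Higd1b, Vtn, Ndufa4l2 and Des, and for 96.4% of genes, and both lay below it for 0 of 10 members and 0.954% of genes. Both held for Rgs5, Kcnj8, Vtn and Des, which is 4 of 10 members, and for 15.8% of genes. Kcnj8 did so by a margin that vanishes at 2 decimals, with -2.61 in both mutant replicate 1 and control replicate 2.

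No gene of the signalling that recruits pericytes passed the test. Of 37 genes listed, 36 were tested, and 0 passed in either direction. Their differences were above 0 for 6 and below for 30, where 47.5% of all genes tested were above 0. The median was -0.13, against -0.01 over all genes. This turned without control replicate 3, where 24 were above 0 with a median of 0.09, against 49.4% and 0.00 for all genes. Several of the listed genes are endothelial genes. Pdgfb, the endothelial ligand of PDGFRB, named for its role after its values were seen, measured 20.7, 24.0 and 52.7 FPKM in the controls and 19.8, 23.7 and 30.8 FPKM in the mutants. The Pdgfrb to Pdgfb ratio was 0.892, 0.836 and 0.826 in the controls and 1.43, 0.976 and 0.877 in the mutants, highest in mutant replicate 1 and overlapping between groups. Pdgfra, the related receptor found on retinal astrocytes and fibroblasts, had the smallest p of the list and measured 7.81, 7.92 and 6.93 FPKM in the controls and 9.46, 8.17 and 8.77 FPKM in the mutants. Its log2 difference was 0.20 (limma adjusted p = 1), with every mutant above every control. The gap-junction gene Gja1 had a log2 difference of -0.27, Smad4 of -0.15 and Smad2 of -0.15 (limma adjusted p = 1 for each). Angpt1, also named for its role, was low, at 0.618 to 1.16 FPKM in controls and 0.691 to 0.748 FPKM in mutants.

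Other genes of mural cells did not pass either. Of 25 symbols of further pericyte genes, 2 of them newer names of genes listed under an older one, 19 were tested and 0 passed in either direction, with 9 differences above 0, 10 below and a median of 0.00. The genes with the smallest p were Casq2 (log2 difference 0.14), the transcription factor Foxs1 (0.13), Pla1a (-0.10) and the respiratory chain isoform Cox4i2 (-0.09), with limma adjusted p = 1 for each. Of 16 mural transcription factors 10 were tested and 0 passed, with a median of -0.11. Mef2c stood at -0.29, Epas1 at -0.25, Foxf2 at -0.19 and Srf at -0.08 (limma adjusted p = 1 for each). Without control replicate 3 the medians were 0.22 for the further pericyte genes and 0.13 for the transcription factors, against 0.32 for the 10 markers and 0.00 for all genes.

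Markers of neighbouring cell types were present beside the pericyte markers. Of 14 smooth muscle contractile genes 10 were tested, 0 passed, and the median log2 difference was 0.08, with Tpm2 at 0.17, Myl9 at 0.16, Synpo2 at 0.11 and Mustn1 at -0.33 (limma adjusted p = 1 for each). The mean of the list was 1.93 to 2.27 in controls and 1.98 to 2.13 in mutants on the log2(FPKM + 1) scale. Acta2, smooth muscle actin, named for its role, measured 3.63, 3.60 and 6.17 FPKM in the controls and 6.07, 4.12 and 4.95 FPKM in the mutants, while Myh11, smooth muscle myosin, was at 0.629 to 1.44 and 0.473 to 0.938 FPKM. Fibroblast genes were lower still, with 6 of 10 tested, 0 passing, 2 at 0 in all libraries, and a mean of 1.46 to 1.74 in controls and 1.42 to 1.66 in mutants. Col3a1 measured 6.79, 7.01 and 11.8 FPKM in the controls and 11.6, 6.65 and 10.2 FPKM in the mutants, and Postn had a log2 difference of 0.17 (limma adjusted p = 1 for both). Like several pericyte markers, Col3a1 and Acta2 were high in control replicate 3 and mutant replicate 1. The means of both lists were also highest in control replicate 3, at 2.27 for smooth muscle and 1.74 for fibroblast genes. Mutant replicate 1 lay above control replicates 1 and 2 in both means. It lay below mutant replicate 3 (2.13) in the smooth muscle mean, and both stood at 1.66 in the fibroblast mean. Single genes of the lists departed from this order. Myh11 and Mustn1 were lowest in mutant replicate 1, and Synpo2 and Pdgfra were lowest in control replicate 3. The part of smooth muscle and fibroblast RNA in the pericyte markers was not tested.

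Lists of other retinal and blood cells also had 0 members passing in either direction. The median log2 difference was 0.08 for 17 photoreceptor genes, 4 of them below 0, with Arr3 at 0.29 and Gngt1 at 0.51. Without control replicate 3 that median was -0.10, with 4 genes above 0. With all libraries, the median was 0.04 for 10 astrocyte and Muller glia genes tested, 4 of them below 0, with Clu at 0.21 and Glul at -0.15. The mean of the microglia and macrophage genes was 1.49 in mutant replicate 1 against 1.97 to 2.38 elsewhere. Their median difference was -0.14 for 10 tested, with C1qb at -0.41 and Aif1, the 1 gene above 0, at 0.29. The median was 0.02 for 14 inner retinal neuron genes tested, with Trpm1 at 0.47, and 0.02 for 5 lens and pigment epithelium genes tested. Of 7 erythrocyte genes 1 was tested, Alas2, at -0.14, and 4 were at 0 in all libraries. Limma adjusted p was 1 for each gene named here. Of 20 endothelial genes 20 had a difference below 0, with a median of -0.16 and Erg at -0.27, and without control replicate 3 all 20 were above 0, with a median of 0.16.

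The members differed in how closely they kept to their common profile. After centring each gene on its mean over the 6 libraries, the root mean square distance to the mean profile of the 10 members was 0.077 for Rgs5, 0.089 for Kcnj8, 0.099 for Abcc9, 0.106 for Notch3 and 0.124 for Pdgfrb on the log2 scale. It was 0.135 for Cspg4 and for Des, 0.196 for Vtn, 0.207 for Ndufa4l2 and 0.330 for Higd1b, with a median of 0.313 over all genes tested. Each member contributes to the mean profile, so its own distance is lowered. Outside the 10, the closest genes over the 6 libraries were Stat6 (0.044), Afap1l2 (0.046), Iqgap3 (0.053), Vstm4 (0.055), Bub1 (0.059), Mtmr11 (0.062), Actn1 (0.062) and Kank2 (0.065). Stat6, a transcription factor of cytokine signalling, measured 4.35, 4.45 and 8.03 FPKM in the controls and 5.37, 4.81 and 5.87 FPKM in the mutants, which is the same order of low controls, intermediate mutants and high control replicate 3. With 6 libraries, such closeness is a description of these libraries.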

How the data were processed

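The 3 control and 3 mutant libraries were grouped by the genotype label. Total RNA went into Illumina TruSeq v2 libraries, per the labels' protocols. The authors' deposited values are FPKM, in a table of 24421 rows with a column for each library. The submitters' processing notes name STAR (2.5.0b), Cufflinks (2.2.1), bedtools (2.17.0), DESeq2 and the build mm10, without saying what each was used for. The annotation and any use of strand were not given in the sources used here. A repeated symbol kept its first row (2 rows dropped), and 27 rows had symbols turned into dates.

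Low FPKM values step by what 1 read is worth. Depth came from miRNA genes, and reads were whole for 16489 of 16489 rows above 0 in all libraries (within 0.002 reads, at most 0.05 for high counts).

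Levels were log2(FPKM + 1). Differences were fitted with limma 3.58.1 (R 4.3.3), trended, two-sided, with Benjamini-Hochberg adjustment over 13620 genes at 0.05, once as levels and once after subtracting the endothelial level. Fold changes on this scale understate changes of low genes. The fit was tested on simulated data. Members and lists were chosen with earlier results of these data known, and the genes named besides the members are up to 4 per list with the smallest p and the 8 with the profile closest to the members' mean. Alternatives were a pseudocount of 0.1, other filters and normalizations, blocks, omission of libraries and limma voom on recovered reads. Python 3.11.15, scipy 1.17.1 and matplotlib 3.10.9 were used.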

Additional observations from a re-analysis of the deposited data

Results flagged for a closer look

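For 8 of the 10 pericyte markers the mutant library lay above both controls among the libraries lettered A to C, while both mutants lay below the control among those lettered D to F. This opposite order held for 15.1% of all genes tested. The mutant minus control log2 difference in D to F minus that in A to C was -1.31 for Pdgfrb, -1.28 for Cspg4, -1.14 for Notch3, -1.07 for Abcc9 and -1.0 for Rgs5. It was -0.89 for Des, -0.80 for Vtn and -0.56 for Kcnj8. For Pdgfrb the differences were 0.54 in A to C and -0.77 in D to F, and for the mean of the 10 markers 0.34 and -0.49. The endothelial level differed by 0.06 and -0.78. Mutant replicate 1 is the only mutant in A to C and control replicate 3 the only control in D to F, so the contrast between the sets rests on these single libraries, and it was not tested.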

How the results depend on the processing

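All alternatives were listed with earlier results of these data known. The number of members passing was 0 under every alternative run, as levels (smallest limma adjusted p = 0.779) and relative to the endothelial genes (0.549), and 0 genes of the lists passed as levels. As levels 0 of all genes passed under each alternative too, so this count does not set the members apart from other genes. The pericyte to endothelial difference of 0.21 ran from 0.15 to 0.29 over alternatives with every library kept and from 0.13 to 0.32 over single omitted libraries. The filters and the replicate block cannot move this score, and scaling of libraries nearly cancels in it, so they are no sign of its stability. Deviations of libraries with the same number correlated at 0.249, -0.151 and 0.390, so the numbers were not taken to pair them. With the replicate block the number of members passing was 0, the difference was 0.21, and relative to the endothelial genes 17 of all genes passed, none of them a marker. Blocking on the letter set instead, level differences turned to -0.12 for Pdgfrb, -0.04 for Rgs5, -0.09 for Cspg4, -0.09 for Kcnj8 and -0.17 for Higd1b, and 11 of all genes passed in the relative fit. Without control replicate 3 it was 68. Over single omitted libraries the level differences ran from -0.18 to 0.42 for Pdgfrb, -0.12 to 0.30 for Rgs5, -0.15 to 0.42 for Cspg4, -0.07 to 0.31 for Kcnj8, -0.18 to 0.31 for Abcc9, -0.26 to 0.33 for Notch3, -0.09 to 0.48 for Higd1b, -0.16 to 0.11 for Vtn, -0.03 to 0.18 for Ndufa4l2 and 0.02 to 0.33 for Des. Relative differences ran from -0.09 to 0.29 for Vtn and from -0.01 to 0.52 for Ndufa4l2, and stayed above 0 for the other 8 members. The cause of these changes was not tested beyond the libraries named. Depth limits mainly Higd1b, Des and Ndufa4l2, with 135 to 482 reads per value.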
